A study of Homo sapiens with 6 samples.

Results

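The ATF4 stress response genes and the cytosolic aminoacyl-tRNA synthetases were examined in K562 cells after knockdown of the poly C-binding protein PCBP1. The 36 genes were taken from a named list, 23 amino acid response genes and 13 synthetases, out of 62252 genes in the summed count table. By role they comprised 7 transcription factors, 6 stress regulators, 8 enzymes of amino acid and one-carbon synthesis, 2 amino acid transporters and the 13 synthetases. K562 is an established human erythroleukemia line. The cells were transduced with lentivirus carrying a hairpin against PCBP1 (shPCBP1, 3 libraries) or a luciferase hairpin (shCtrl, 3 libraries), with polybrene at 8 µg/mL, and both groups were selected in puromycin at 3 µg/mL for 4 days before polyadenylated RNA was sequenced. A single hairpin was used against PCBP1, so effects of that hairpin on other RNAs and effects of PCBP1 loss cannot be told apart.

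ATF4 is a transcription factor whose mRNA is translated preferentially when the initiation factor eIF2 is phosphorylated by kinases that sense amino acid lack, unfolded proteins, viral RNA or heme lack. It pairs with C/EBP proteins at composite promoter elements and raises genes for amino acid uptake, serine, glycine, proline and asparagine synthesis, tRNA charging and feedback on eIF2. In erythroid cells the heme-regulated kinase links this pathway to iron and heme supply. Because ATF4 itself is controlled largely at translation, the mRNA level of ATF4 does not measure the ATF4 protein, which was not assayed in these libraries.

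PCBP1 normalized counts were 40566, 38409 and 37799 in the shCtrl libraries and 6625, 7277 and 7221 in the shPCBP1 libraries, a fall to 18.1% of control. Estimated counts totalled between 67066747 and 140522444 per library. All 8 erythroleukemia markers were detected at a mean of at least 1 TPM, a length-corrected transcript level that sums to 1000000 in each library, while CD3E, CD2, MS4A1, CD79A, CD14 and CSF1R, markers of T cells, B cells and monocytes, were below it, although CD3D averaged 60.5 TPM and LYZ 48.9 TPM. Of the 36 genes, 35 received an adjusted p-value. VLDLR, with normalized counts of 7.61 to 45.0, did not.

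One control library stood apart for these genes. Replicate 2 of shCtrl was the highest of the 6 libraries for 18 of the 36 genes, whereas it was the highest for 20.8% of all genes tested. Relative to the mean of the other shCtrl libraries, its CHAC1 count was 6.74-fold, its DDIT4 count 4.48-fold, its ATF3 count 1.67-fold and its SESN2 count 1.49-fold. Among the 21 response genes with a mean count of at least 100, those just named included, the ratio was above 1 in 20 (median 1.19-fold). It was above 1 in 9 of the 13 synthetases, which had a median of 1.03-fold and a range of 0.974-fold to 1.19-fold. Counts of changed genes are therefore given with and without this library. Among ATF4 targets outside the list, SLC7A11 was at 1.67-fold, STC2 at 1.65-fold, SLC38A2 at 1.40-fold and GDF15 at 1.37-fold, but SLC43A1 was at 0.95-fold. Of other related genes, HERPUD1 was at 1.48-fold, while EIF2S1, a subunit of eIF2, and AIMP2, a synthetase scaffold, were at 0.89-fold. These genes were picked after their values were seen. What set this library apart was not tested.

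To show the promoter element through which ATF4 with C/EBP partners acts, the RefSeq promoter windows of GRCh38.p14, 300 bases around each annotated start, were searched on both strands for TGATGNAA. Of the 36 genes, 29 had a promoter entry, and 12 of these (41.4%) held the element against 3.62% of all 35116 windows. In this search and the one below, a gene counted once if any of its windows matched. The background counted single windows, so the units differ. The 12 genes were ATF3, CEBPG, CHAC1, ASNS, SLC1A5 and the synthetase genes AARS1, CARS1, GARS1, IARS1, MARS1, NARS1 and TARS1. The cyclic AMP response element TGACGTCA, the site named for CREB and ATF proteins, was present in 1 gene, PPP1R15A, against 1.85% of all windows. Below are 5 of the TGATGNAA matches, from a stress factor, a glutathione-degrading enzyme, a biosynthetic enzyme, a transporter and a synthetase, followed by the PPP1R15A match. Sequences run 5′ to 3′ on the strand of the gene, with the element in capitals, and TTGCATCA is the element read from the opposite strand.
ATF3: aggtcaggaTGATGGAAggctgtcat
CHAC1: cccctgccgTTGCATCActcctgcca
ASNS: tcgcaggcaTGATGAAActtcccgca
SLC1A5: ggaagtggcTGATGCAAgctgtccag
MARS1: cggttccggTTGCATCAgcgagggat
PPP1R15A: ctctcttcgTGACGTCAgcacgccgg
The windows lie at chr1:212565207-212565232 (ATF3, plus strand, element 191 bases before the start), chr15:40953253-40953278 (CHAC1, plus, 209 bases), chr7:97872460-97872485 (ASNS, minus, 68 bases), chr19:46784895-46784920 (SLC1A5, minus, 97 bases), chr12:57488055-57488080 (MARS1, plus, 4 bases) and chr19:48872354-48872379 (PPP1R15A, plus, 58 bases). A match describes the sequence and does not show that a factor was bound.

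With all 6 libraries, 11 of the 35 genes tested changed at an adjusted p below 0.05 in DESeq2, 9 higher and 2 lower in shPCBP1. That share, 31.4%, stood beside 31.2% of all 17095 genes tested, with 17.7% of all genes higher and 13.5% lower. The median log2 fold change of the 35 genes was 0.05, and that of all genes was 0.002. The study's thresholds were an absolute log2 fold change above 1, an adjusted p below 0.05 and a mean count above 10. Under them 0 of the 35 genes qualified in DESeq2 and 0 in edgeR, beside 1.37% of all genes in DESeq2 (0.386% higher and 0.989% lower). DDIT4 passed the fold change part alone (-1.05, adjusted p = 0.336 by DESeq2). Whatever the fold change, 15 genes had an unadjusted p below 0.05 in DESeq2 and 13 in edgeR, a share not counted over all genes. With TMM scaling the split was 7 higher and 3 lower, beside 31.0% of all genes (2759 higher and 2537 lower of 17095). The share of changed genes was close to that of all genes. As the libraries are bulk RNA, fewer expressing cells and less RNA per cell cannot be told apart in any of these values. The 3 shPCBP1 libraries lay entirely above or below the controls for 12 of the 36 genes (8 higher, 4 lower), while this held for 44.2% of all genes tested.

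Without replicate 2 of shCtrl, 16 of 34 genes changed (15 higher, 1 lower), or 47.1%, beside 28.2% of all 15610 genes tested, and the median log2 fold change was 0.11. That library was singled out for its high values in these genes, so leaving it out tends to raise their fold changes. The 2 shares are therefore no independent comparison. With any other library left out, 7 to 10 genes changed, beside 25.7% to 31.6% of all genes tested. The lists with and without shCtrl replicate 2 shared 10 genes. DDIT3 was lost and ATF4, CEBPB, SESN2, PSAT1, MTHFD2 and CARS1 were gained, all 6 of them higher in shPCBP1. By role, 2 of 6 transcription factors, 2 of 5 stress regulators, both transporters and 3 of 13 synthetases were then higher with 0 lower by DESeq2, and 6 of 8 synthesis enzymes were higher with 1 lower. In the DESeq2 fit with all libraries and in each of the 6 fits that left 1 library out, 6 genes changed: SHMT2, PPP1R15A, SLC7A5, SLC1A5, ALDH18A1 and EPRS1. Of these, ALDH18A1 did not pass with transcript length offsets (adjusted p = 0.183 by DESeq2). The share of all genes that changed in every one of these fits was not counted. The plot of each gene in each library shows the open diamonds of shCtrl replicate 2 to the right of the other controls for most response genes, and the plot of fold changes shows how the estimates move when it is left out.

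**Figure D1:**
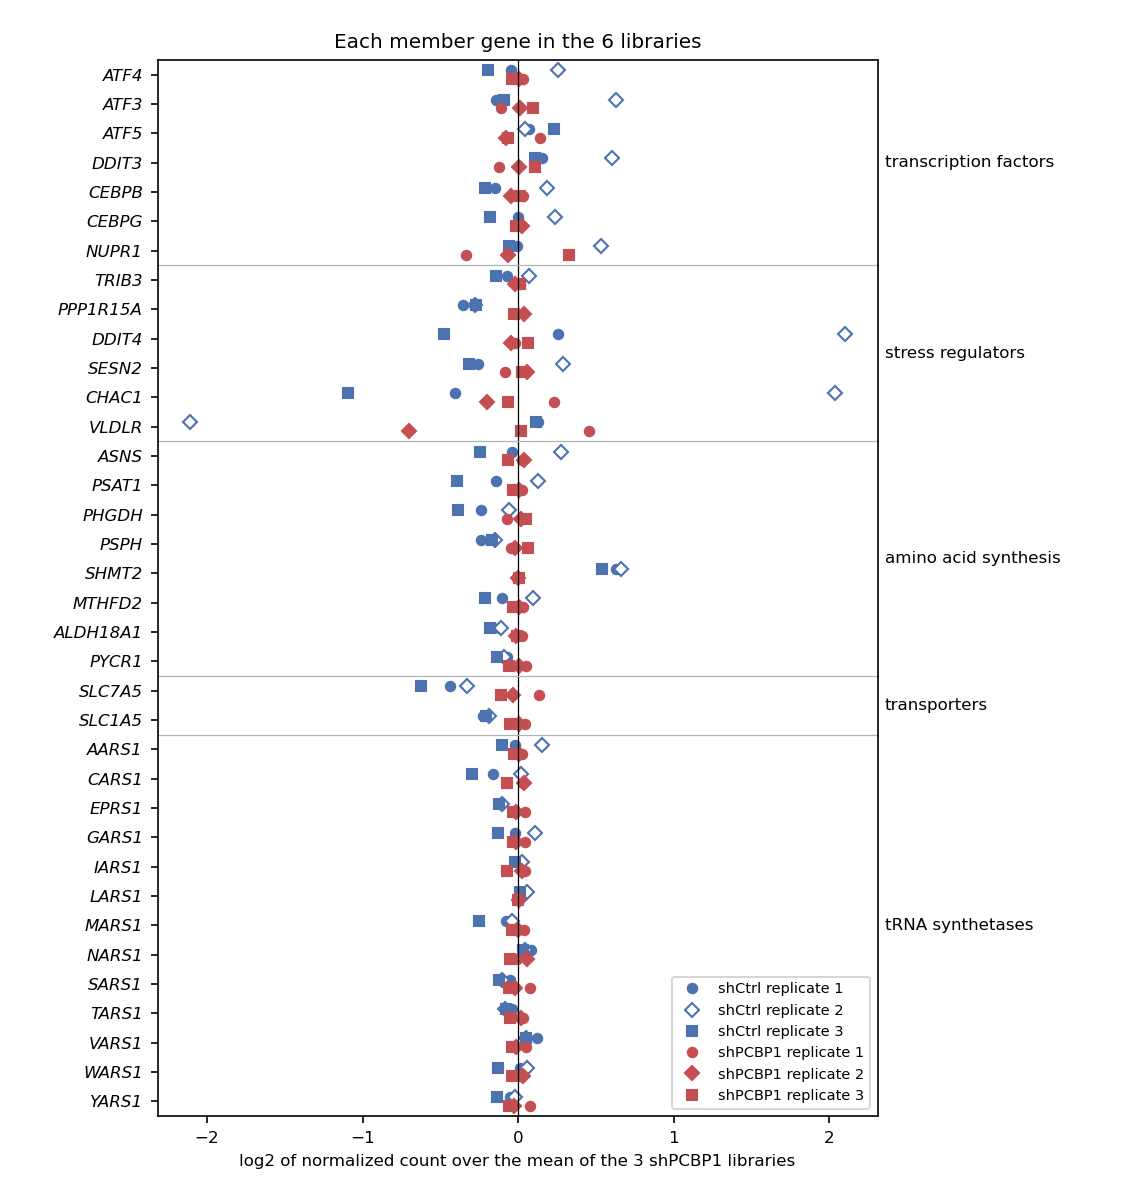
Normalized count of each of the 36 genes in each library, as the log2 of its ratio to the mean of the 3 shPCBP1 libraries, grouped by role. Blue symbols are shCtrl (open diamond, replicate 2) and red symbols shPCBP1; CHAC1 and DDIT4 in shCtrl replicate 2 lie near 2, and SHMT2 is the gene whose 3 controls all lie above 0.5.

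**Figure D2:**
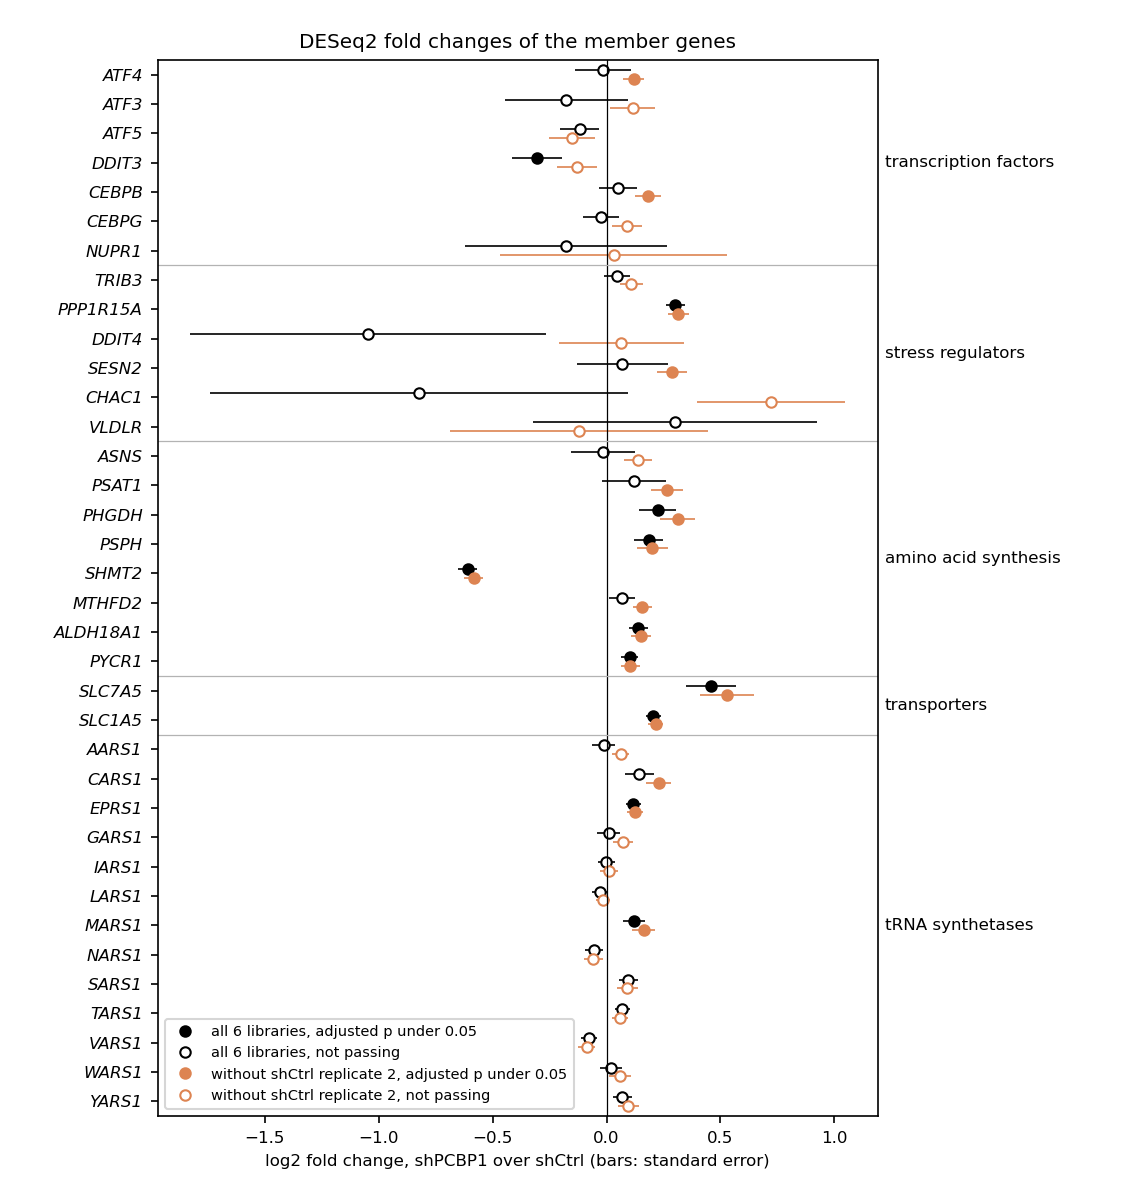
DESeq2 log2 fold change of each gene, shPCBP1 over shCtrl, with bars for the standard error, from all 6 libraries (black) and without shCtrl replicate 2 (orange). Filled points have an adjusted p below 0.05; there are 11 black and 16 orange filled points.

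Among the 7 transcription factors, 1 changed (14.3%, beside 31.2% of all genes tested), DDIT3, and it was lower. ATF4 (chr22:39519695-39522683), the central factor, had normalized counts of 24441, 30085 and 22102 in shCtrl, against 25792, 25341 and 24597 in shPCBP1. The shPCBP1 values fell inside the range of the controls. Its log2 fold change was -0.02 (SE 0.122, adjusted p = 0.943 by DESeq2). Without shCtrl replicate 2 it was 0.12 (SE 0.0464, adjusted p = 0.0401 by DESeq2), a difference smaller than the spread among the 3 controls.

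DDIT3 encodes CHOP, a C/EBP family factor linked to stress-induced cell death. Its counts were 2123, 2898 and 2056 in shCtrl, against 1756, 1916 and 2054 in shPCBP1. The groups did not overlap, but the nearest values of the groups almost touched. The log2 fold change was -0.30 (SE 0.109, adjusted p = 0.0202 by DESeq2), and the call ended without shCtrl replicate 2 (log2 fold change -0.13, adjusted p = 0.28) and in edgeR (adjusted p = 0.0562). It also ended without shPCBP1 replicate 1 or 2 (adjusted p = 0.155 and 0.0933), with transcript length offsets (0.0547), above a mean count of 50 (0.173) and over protein-coding genes (0.167, all by DESeq2). DDIT3 (39.8 TPM) overlaps MARS1 (147 TPM) on the opposite strand, and as strandedness of the libraries was not stated, reads in the overlap could not be assigned by strand. Of the 36 genes, 17 overlap an annotated gene on the opposite strand.

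ATF3, a stress-induced repressor and activator, had counts of 1191, 2028 and 1231 in shCtrl, against 1213, 1321 and 1402 in shPCBP1. The highest value was again shCtrl replicate 2, and the groups overlapped (log2 fold change -0.18, SE 0.268, adjusted p = 0.685 by DESeq2). CEBPB and CEBPG, C/EBP partners of ATF4, had log2 fold changes of 0.05 and -0.03 with adjusted p-values of 0.708 and 0.851 by DESeq2. CEBPB was higher without shCtrl replicate 2 (0.18, adjusted p = 0.00942 by DESeq2). ATF5, itself an ATF4 target with a translationally controlled mRNA, had a log2 fold change of -0.12 (SE 0.0868, adjusted p = 0.324 by DESeq2). NUPR1, a small stress-induced chromatin protein, was at 31.5 to 57.6 normalized counts and could not be separated between groups at this depth (adjusted p = 0.818 by DESeq2).

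Among the stress regulators, 1 of 5 tested changed (20%, beside 31.2% of all genes tested). This was PPP1R15A, also known as GADD34, the regulatory subunit that directs a phosphatase to eIF2 and ends the response. Its counts were 8632, 9131 and 9162 in shCtrl, against 10932, 11372 and 10875 in shPCBP1. All 3 shPCBP1 libraries lay above all controls, by a log2 fold change of 0.30 (SE 0.0427, adjusted p = 5.83e-11 by DESeq2). This is the gene with the TGACGTCA match printed above.

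CHAC1, an enzyme that degrades glutathione and a sensitive ATF4 target, had counts of 111, 605 and 68.9 in shCtrl, against 173, 128 and 141 in shPCBP1. Its direction depended on shCtrl replicate 2: the log2 fold change was -0.83 (SE 0.918, adjusted p = 0.551 by DESeq2) with it and 0.72 (SE 0.325, adjusted p = 0.0834 by DESeq2) without it, so neither passed. DDIT4, an inhibitor of the mTORC1 kinase that also responds to hypoxia and glucocorticoids, followed the same pattern. Its counts were 5320, 19045 and 3191 in shCtrl, against 4391, 4305 and 4642 in shPCBP1. The shPCBP1 libraries lay between the 2 lower controls (log2 fold change -1.05, SE 0.781, adjusted p = 0.336 with all libraries, and 0.06, adjusted p = 0.899, without shCtrl replicate 2, both by DESeq2).

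TRIB3, a pseudokinase that feeds back on ATF4, had counts of 5353, 5909 and 5103 in shCtrl, against 5667, 5553 and 5678 in shPCBP1, with overlapping groups (log2 fold change 0.05, SE 0.0573, adjusted p = 0.589 by DESeq2). SESN2, a leucine sensor upstream of mTORC1, had counts of 3227, 4721 and 3105 in shCtrl, against 3641, 4023 and 3930 in shPCBP1. It did not pass with all libraries (log2 fold change 0.07, adjusted p = 0.844 by DESeq2) and passed without shCtrl replicate 2 (0.29, adjusted p = 0.000121 by DESeq2). VLDLR, a lipoprotein receptor induced by ATF4 in other cells, had counts of 35.9, 7.61 and 35.5 in shCtrl, against 45.0, 20.2 and 33.2 in shPCBP1, too few to compare.

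**Figure D3:**
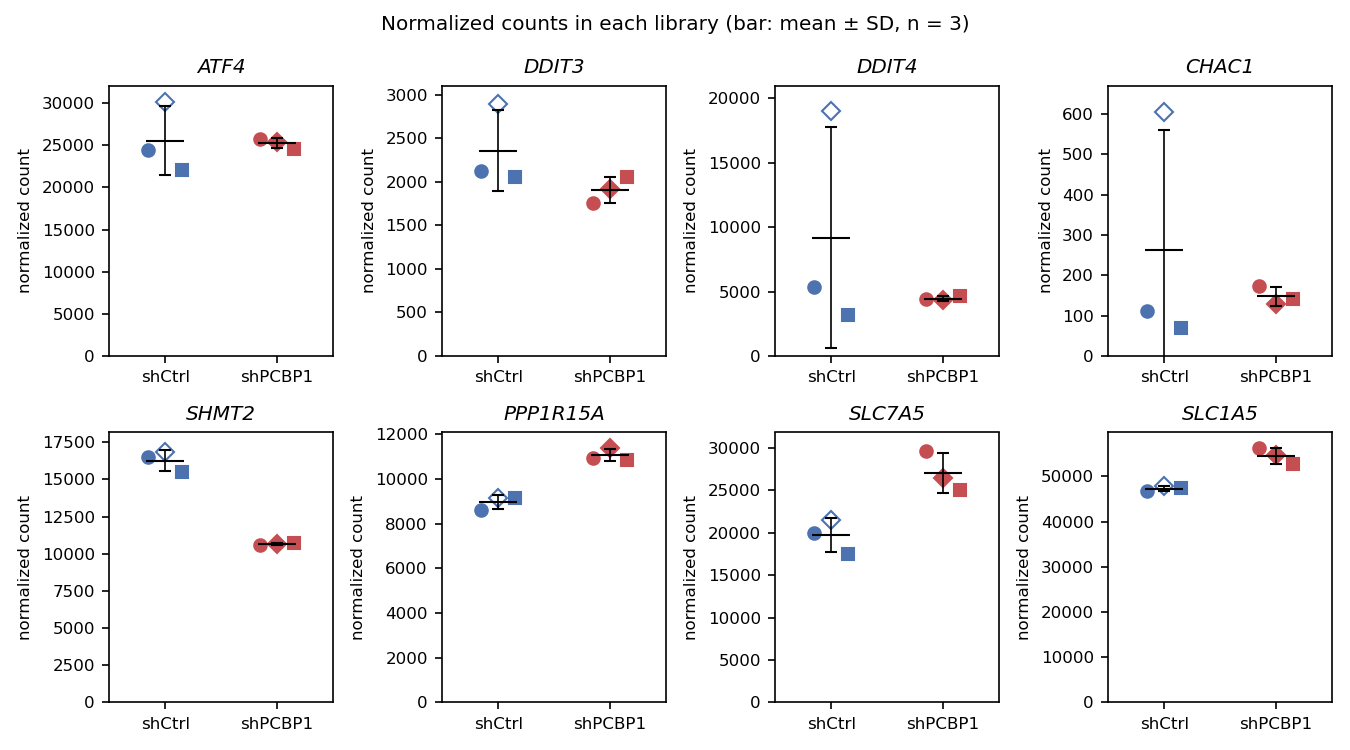
Normalized counts of 8 genes in each library, with the mean and SD of each group of 3 (the CHAC1 control bar is cut at 0). Open diamonds are shCtrl replicate 2, which is far above the other controls for DDIT4 (19045) and CHAC1 (605) and close to them for SHMT2, PPP1R15A and SLC1A5.

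Among the 8 enzymes of amino acid and one-carbon synthesis, 5 changed, with 4 higher and 1 lower. This was the largest share by role among groups of more than 2 genes (62.5%, beside 31.2% of all genes tested). It rests on few genes, and the calls of PHGDH, PSPH and PYCR1 ended in some other fits, given below. The largest difference was the fall of SHMT2 (chr12:57229573-57234935, plus strand), the mitochondrial hydroxymethyltransferase that converts serine to glycine and charges folate with a one-carbon unit. SHMT2 counts were 16494, 16823 and 15475 in shCtrl, against 10596, 10666 and 10722 in shPCBP1. The knockdown libraries were close to each other and all lay below every control, at 65.6% of the control level (log2 fold change -0.61, SE 0.0415, adjusted p = 3.89e-46 by DESeq2). With transcript length offsets the fall was smaller (log2 fold change -0.46, adjusted p = 6.45e-13 by DESeq2).

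Of the 3 serine synthesis enzymes, which act upstream of SHMT2, PHGDH and PSPH were called higher with all libraries. PHGDH, which catalyses the first step from 3-phosphoglycerate, had counts of 2274, 2571 and 2047 in shCtrl, against 2551, 2716 and 2773 in shPCBP1, and rose by a log2 fold change of 0.22 (SE 0.0816, adjusted p = 0.0229 by DESeq2) although its lowest shPCBP1 value lay below shCtrl replicate 2. The PHGDH call ended in edgeR (adjusted p = 0.0705) and without shCtrl replicate 1, shCtrl replicate 3, shPCBP1 replicate 2 or shPCBP1 replicate 3 (adjusted p = 0.0986 to 0.17 by DESeq2). PSPH, the phosphatase of the last step, had counts of 2526, 2682 and 2656 in shCtrl, against 2883, 2942 and 3114 in shPCBP1, with no overlap (0.18, SE 0.0625, adjusted p = 0.0131 by DESeq2), and its call ended without shCtrl replicate 1 or shPCBP1 replicate 3 (adjusted p = 0.0766 and 0.0703 by DESeq2). PSAT1, the aminotransferase between them, had a log2 fold change of 0.12 (adjusted p = 0.572 by DESeq2) and passed without shCtrl replicate 2 (0.27, adjusted p = 0.00151 by DESeq2). MTHFD2, the mitochondrial folate enzyme downstream of SHMT2, had a log2 fold change of 0.07 (adjusted p = 0.417) with all libraries and likewise passed without shCtrl replicate 2 (0.16, adjusted p = 0.00173, both by DESeq2).

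Both enzymes of proline synthesis on the list were called higher with all libraries, and neither call held with transcript length offsets (adjusted p = 0.183 for ALDH18A1 and 0.16 for PYCR1 by DESeq2). ALDH18A1, which reduces glutamate toward proline and ornithine, had counts of 7960, 8007 and 7624 in shCtrl, against 8807, 8561 and 8601 in shPCBP1 (log2 fold change 0.14, SE 0.0425, adjusted p = 0.00525 by DESeq2). PYCR1, which completes proline synthesis, had counts of 20087, 19760 and 19167 in shCtrl, against 21818, 21190 and 20268 in shPCBP1 (0.10, SE 0.0388, adjusted p = 0.0328 by DESeq2, and 0.143 in edgeR), and its call also ended without shCtrl replicate 3, shPCBP1 replicate 1 or shPCBP1 replicate 2 (adjusted p = 0.12 to 0.165 by DESeq2). ASNS, asparagine synthetase, had counts of 9881, 12267 and 8566 in shCtrl, against 10312, 10401 and 9697 in shPCBP1. The groups overlapped, and its log2 fold change was -0.01 with all libraries (SE 0.14, adjusted p = 0.959) and 0.14 without shCtrl replicate 2 (adjusted p = 0.0864, both by DESeq2).

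Both amino acid transporters rose, beside 17.7% of all genes tested. SLC7A5 (chr16:87830023-87869507, minus strand), the light chain of the LAT1 exchanger for leucine and other large neutral amino acids, had counts of 19973, 21508 and 17530 in shCtrl, against 29673, 26430 and 25014 in shPCBP1, all above the controls. Its log2 fold change of 0.46 (SE 0.109, adjusted p = 0.000213 by DESeq2) was the highest among the 11 changed genes. The pseudogenes SLC7A5P2 (6.87 TPM) and SLC7A5P1 (0.625 TPM) share sequence with SLC7A5 (62.0 TPM), so the division of reads among them is uncertain. SLC1A5, the glutamine transporter ASCT2, had counts of 46715, 47841 and 47315 in shCtrl, against 56295, 54672 and 52629 in shPCBP1 (0.21, SE 0.0338, adjusted p = 2.58e-08 by DESeq2).

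The 13 synthetases, which charge each tRNA with its amino acid, changed little, with 2 higher and 0 lower by DESeq2 (0 lower by edgeR). That was 15.4%, beside 31.2% of all genes tested by DESeq2. Log2 fold changes ran from -0.08 for VARS1 to 0.14 for CARS1. EPRS1, the fused glutamyl and prolyl synthetase, had counts of 44324, 45009 and 44317 in shCtrl, against 49865, 47801 and 47215 in shPCBP1, with no overlap (0.12, SE 0.0327, adjusted p = 0.00208 by DESeq2). MARS1, the methionyl enzyme, had counts of 25770, 26445 and 22870 in shCtrl, against 27991, 27172 and 26515 in shPCBP1, with no overlap but a narrow gap (0.12, SE 0.0484, adjusted p = 0.0402 by DESeq2). MARS1 did not pass in edgeR (adjusted p = 0.157) or when any library other than shCtrl replicate 2 was left out, nor with TMM factors, transcript length offsets, a mean count above 50 or protein-coding genes alone (adjusted p = 0.0619 to 0.323 by DESeq2). VARS1, the valyl enzyme, missed the threshold at a log2 fold change of -0.08 (adjusted p = 0.0943 by DESeq2) but was called lower with TMM factors (adjusted p = 0.0299), above a mean count of 50 (0.04), over protein-coding genes (0.0112) and without shPCBP1 replicate 1 (0.0237, all by DESeq2). Without shCtrl replicate 2, CARS1 joined the higher genes (0.23, adjusted p = 0.000253 by DESeq2).

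Per length, the member synthetases ranged in shCtrl from 299.9 ± 6.88 TPM for TARS1, the threonyl enzyme, to 48.7 ± 6.33 TPM for CARS1, the cysteinyl enzyme (SD, n = 3). In shPCBP1 the same genes were at the ends, at 305.1 ± 5.05 and 51.9 ± 2.21 TPM. Between them SARS1 and VARS1 in shCtrl (172.9 ± 4.97 and 177.1 ± 5.00 TPM) were within 1 SD of each other, and YARS1, AARS1 and GARS1 lay within 1 SD of MARS1 (for MARS1, YARS1, AARS1 and GARS1, 142.8 ± 17.6, 130.5 ± 9.92, 132.9 ± 14.1 and 128.6 ± 12.7 TPM). Among the 7 cytosolic synthetase genes outside the list, 3 were higher (FARSA, KARS1 and FARSB) and 1 was lower, beside 17.7% and 13.5% of all genes tested. The lower gene was QARS1, the glutaminyl enzyme, with counts of 16007, 16073 and 16072 in shCtrl, against 9054, 9772 and 9847 in shPCBP1 (log2 fold change -0.75, SE 0.0418, adjusted p = 1.46e-68 by DESeq2). QARS1 set the low end among all 20 cytosolic synthetases, and the next lowest was VARS1.

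**Figure D4:**
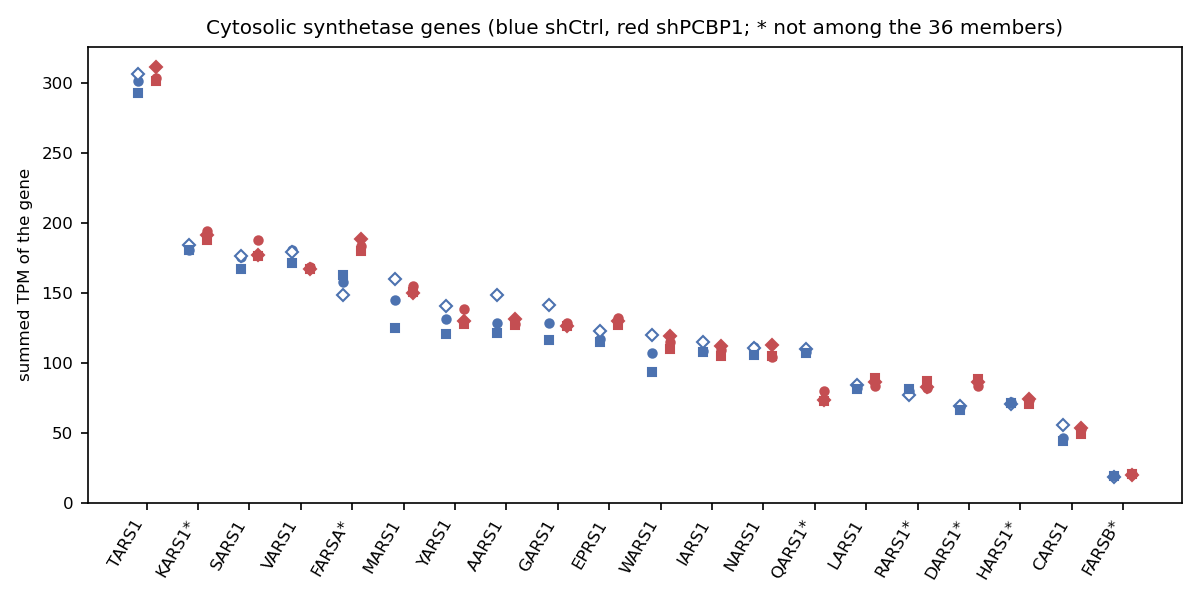
Summed TPM of the 20 cytosolic synthetase genes in each library, ordered by level, with shCtrl in blue and shPCBP1 in red and an asterisk for genes outside the list of 36. QARS1 falls from 108.2 to 75.4 TPM on average, and for each member synthetase the shCtrl and shPCBP1 points lie near each other.

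At the level of single transcripts, 180 transcripts of 34 genes averaged at least 1 TPM. Of these, 5 changed (4 higher, 1 lower) on log2(TPM + 0.1) by limma at an adjusted p below 0.05, or 2.78%, beside 4.87% of all 44441 transcripts tested (2.47% higher and 2.4% lower). At an unadjusted p below 0.05 there were 40, or 22.2%, beside 22.5% of all. All 5 were protein-coding. They also passed in edgeR on transcript counts. With 1 library left out, SHMT2-201 passed in all 6 fits, PYCR1-204 in 2 and CARS1-203 in 1, and PPP1R15A-201 and SLC1A5-203 in 0 (adjusted p = 0.0672 to 0.0969 and 0.0656 to 0.119 by limma).

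SHMT2-201, the canonical transcript, fell with its gene. It was at 87.8, 90.1 and 83.5 TPM in shCtrl, against 50.5, 50.5 and 52.5 TPM in shPCBP1 (log2 fold change -0.77, SE 0.0423, adjusted p = 0.00211 by limma). Its share of the SHMT2 TPM was 79.4%, 77.7% and 80.9% in shCtrl, against 66.7%, 60.6% and 67.5% in shPCBP1. The share was lower in every knockdown library, but no share passed the test after adjustment. The summed SHMT2 TPM fell less than SHMT2-201, from 109.9 ± 6.42 to 78.9 ± 3.93 TPM (SD, n = 3).

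CARS1-203, a non-canonical transcript, was at 2.83, 5.30 and 4.07 TPM in shCtrl, against 13.0, 9.92 and 10.7 TPM in shPCBP1 (log2 fold change 1.48, SE 0.238, adjusted p = 0.0287 by limma). The groups did not overlap, but its call held only without shCtrl replicate 2 among the fits with 1 library left out (adjusted p = 0.0421, and 0.0578 to 0.0914 in the other 5 by limma). Its share of CARS1 was 6.07%, 9.49% and 9.29% in shCtrl, against 24.8%, 18.5% and 21.7% in shPCBP1, while the gene as a whole did not pass. PYCR1-204 was at 10.8, 11.0 and 8.33 TPM in shCtrl, against 20.6, 17.5 and 21.2 TPM in shPCBP1 (0.98, SE 0.134, adjusted p = 0.0196 by limma, and 0.0554 to 0.0727 in the 4 fits with 1 library left out that it did not pass), and made up 6.03% ± 0.595 of PYCR1 in shCtrl and 11.3% ± 1.21 in shPCBP1 (SD, n = 3). The remaining changed transcripts were the canonical PPP1R15A-201 (0.28, adjusted p = 0.0282 by limma) and SLC1A5-203 (0.17, adjusted p = 0.0373 by limma), which carried 89.7% ± 1.30 and 95.8% ± 1.56 of their genes in shCtrl.

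**Figure D5:**
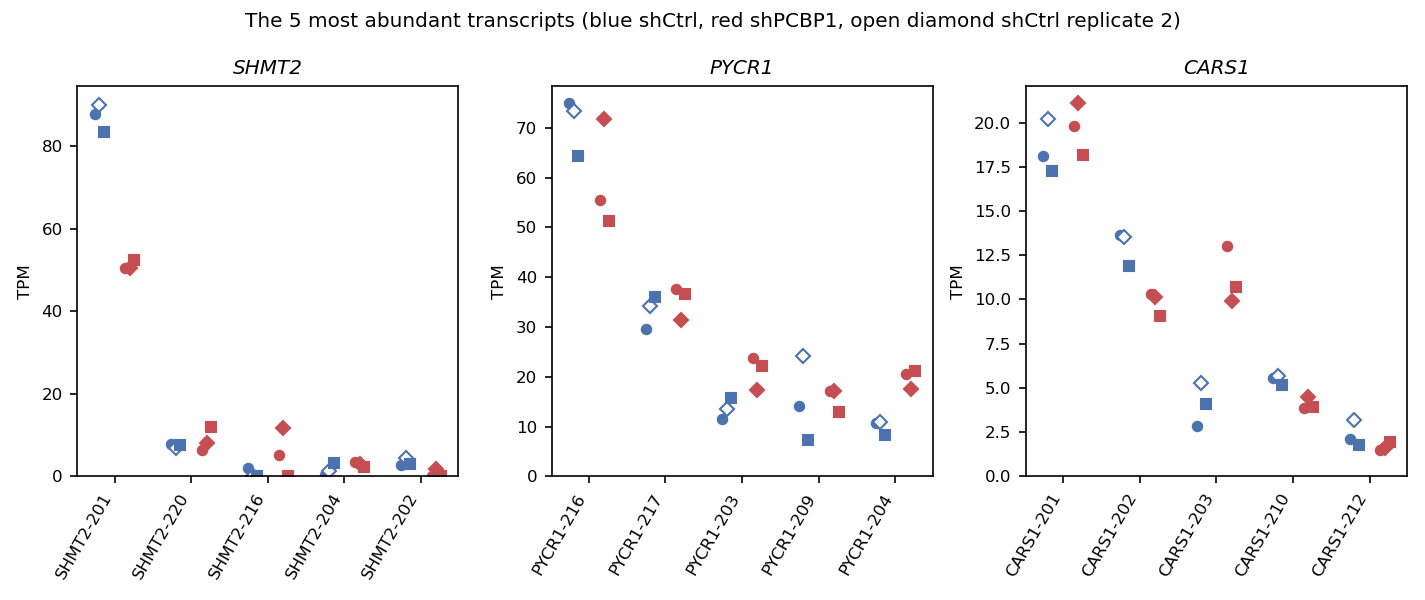
TPM of the 5 most abundant transcripts of SHMT2, PYCR1 and CARS1 in each library. SHMT2-201 is lower in all shPCBP1 libraries, and CARS1-203 and PYCR1-204 are higher in all of them, against several other transcripts whose groups overlap.

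Shares were fitted for 175 transcripts of 29 genes as the log2 ratio of a transcript to the rest of its gene, and limma called 0 after adjustment, beside 0.547% of all 39874 shares (0.311% higher and 0.236% lower). At an unadjusted p below 0.05 there were 35, or 20.0%, beside 15.2% of all. The ratio of non-coding to coding isoforms was fitted for 21 genes and limma called 0, beside 0.255% of all 6676 ratios (0.165% higher and 0.0899% lower), with 9 below an unadjusted p of 0.05 (42.9%, beside 15.9%). The lowest p-values were those of SHMT2 and LARS1. For SHMT2 the non-coding share of its TPM was 7.88%, 9.29% and 8.29% in shCtrl, against 13.0%, 12.2% and 13.3% in shPCBP1 (adjusted p = 0.0899 by limma). For LARS1, the leucyl synthetase, it was 24.5%, 21.4% and 23.2% in shCtrl, against 33.4%, 31.5% and 39.0% in shPCBP1 (adjusted p = 0.0926 by limma), and for VARS1 14.6% ± 0.393 and 18.1% ± 1.21 (SD, n = 3, adjusted p = 0.204 by limma). The groups of these 3 genes did not overlap, which was not counted over all ratios. The others of the 9 went both ways. The log2 ratio was higher for MTHFD2 (0.41) and EPRS1 (0.88). It was lower for TARS1 (-0.37), AARS1 (-0.45), ASNS (-0.62) and IARS1 (-0.41), also without overlap.

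Neighboring parts of the pathway were counted over 89 further genes, of which 88 were tested. There were 23 higher and 11 lower, or 38.6%, beside 31.2% of all genes tested. Without shCtrl replicate 2 there were 21 higher and 12 lower of 87, or 37.9%, beside 28.2% of all genes. By list, the fit without that library gave 1 higher and 1 lower of the 7 other cytosolic synthetases, with FARSA and QARS1 passing and KARS1 and FARSB not, 4 and 4 of 17 mitochondrial synthetases, 5 and 1 of 21 eIF2 genes, 6 and 4 of 26 other ATF4 targets, and 4 and 2 of 14 genes of the ATF6 and IRE1 arms. Of 21 genes for eIF2 and its control (kinases, exchange factor, phosphatase and linked regulators), 6 were higher and 1 lower. Of the kinases, 3 did not pass, with log2 fold changes of -0.02 for EIF2AK1, the heme-regulated kinase, -0.01 for EIF2AK3 (PERK) and -0.06 for EIF2AK4 (GCN2). Those that passed included EIF2B4 (0.32) and EIF2B2 (-0.16), subunits of the exchange factor, PPP1R15B (0.13), the constitutive partner of PPP1R15A, and EIF2AK2 (0.16), the double-stranded RNA kinase. In TPM the groups of PPP1R15B and EIF2AK2 overlapped.

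Of 27 other ATF4 targets tested, 5 were higher and 3 lower, or 29.6%, beside 31.2% of all genes tested. The amino acid transporter genes SLC38A1 (log2 fold change 0.25), SLC3A2 (0.23), the heavy chain that pairs with SLC7A5, and SLC7A1 (0.28), the arginine carrier, were higher. GOT1, the cytosolic aspartate aminotransferase, had counts of 8459, 8890 and 8040 in shCtrl, against 4573, 4530 and 4681 in shPCBP1 (-0.88, SE 0.0503, adjusted p = 8.62e-66 by DESeq2). SLC43A1 (-0.61) and GDF15 (-0.69), a secreted stress cytokine, were also lower. The list thus held both directions, as the 36 genes did.

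The ATF6 and IRE1 arms of the unfolded protein response act beside PERK in the endoplasmic reticulum. They held 4 higher and 2 lower of 14 genes, beside 17.7% and 13.5% of all genes tested. ATF6 (0.23), SDF2L1 (0.19) and SEL1L (0.20) were among the higher, and the lower were HSP90B1 (-0.21) and EDEM1 (-0.20). In TPM the groups of EDEM1 overlapped, with its highest value in shPCBP1 replicate 3 (16.3 TPM, against 10.9 to 12.9 TPM in shCtrl). Those of the other genes just named stayed apart. Without shCtrl replicate 2 EDEM1 did not pass (adjusted p = 0.0513 by DESeq2), and HYOU1, an endoplasmic reticulum chaperone, did (adjusted p = 0.00159). Of 17 mitochondrial synthetases, 4 were higher and 4 lower, beside 17.7% and 13.5% of all genes tested. MARS2 (0.26), AARS2 (0.21) and EARS2 (0.19) were higher, and TARS2 (-0.53), SARS2 (-0.38) and VARS2 (-0.20) lower. In TPM the groups of MARS2, AARS2 and VARS2 stayed apart, while those of EARS2, TARS2 and SARS2 overlapped. Mean EARS2 TPM went the other way from its counts, from 24.8 in shCtrl to 23.5 in shPCBP1. Of the 3 scaffold proteins of the multi-synthetase complex, AIMP2 was higher (0.33, adjusted p = 4.92e-06 by DESeq2).

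The genes with the TGATGNAA element were set beside the calls. Of the 12, 2 were higher (SLC1A5 and MARS1) and 0 were lower by DESeq2, with a median log2 fold change of -0.01. Without shCtrl replicate 2, 3 were higher, 0 were lower and the median was 0.10. Of the 24 without the element or without a promoter entry, 7 were higher and 2 lower, with a median of 0.07. Without shCtrl replicate 2, 12 of the 24 were higher and 1 lower, with a median of 0.11. Of all genes tested, 17.7% were higher and 13.5% lower with all libraries, and 16.3% and 11.9% without shCtrl replicate 2. Replicate 2 of shCtrl was the highest library for 6 of the 12 and for 12 of the 24.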

How the data were processed

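Polyadenylated RNA from 6 K562 libraries was sequenced in paired ends. The authors quantified transcripts with Salmon 1.10.2 and deposited, for each library, estimated counts and TPM for 252045 transcripts, with lengths, which were not tested. Replicates were not pooled. Their notes name hg38, STAR 2.7.11b and DESeq2 3.19. Strandedness was not given in the sources used here. The labels do not say that replicates came from separate cultures, so p-values measure the spread between these samples, which may be technical.

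Transcripts were assigned to genes with GENCODE v44 (251612 matched, 251142 by exact version; the rest held at most 0.147% of counts). Estimated counts were summed per gene, rounded, and genes with a sum of at least 10 were tested with DESeq2 1.42.0 (Wald test, median-of-ratios scaling, Benjamini-Hochberg adjustment over all genes, two-sided); "changed", "higher" and "lower" mean an adjusted p below 0.05. Transcripts with a mean of at least 1 TPM were tested with limma 3.58.1 on log2(TPM + 0.1), a scale that understates changes of low transcripts. edgeR 4.0.16 was an alternative, as were other scalings, filters, pseudocounts and each library left out. Each fit was tested on simulated data. Replicates differed by more than sampling noise (chi-square per degree of freedom 6.19 to 15.1). Same-numbered samples did not deviate together (correlations -0.105 to 0.0940 over 14181 genes), so numbers were not used as pairs.

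The 36 genes and all lists were chosen with earlier results of these data known. Values are given per library for ATF4, ATF3, DDIT3, ASNS, TRIB3 and CHAC1, for up to 12 further changed genes with a mean count of at least 100 by fold change, and for other genes where a result turned on them, these last chosen after their values were seen. For each further list, up to 3 genes higher and 3 lower by lowest p are named. The eIF2 kinases were also named after their values were seen. Changed transcripts, or the 3 with the lowest p, are named. A gene of the cell type marker lists is not reported here.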

Additional observations from a re-analysis of the deposited data

How the results depend on the processing

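Of 276 gene and transcript values recomputed under other scalings, filters, tools or pseudocounts, 240 kept their direction and their side of the threshold, 21 no longer passed, 4 newly passed and 11 reversed; with 1 library left out, 170 of 234 kept both. The number of changed genes was 7 (6 higher, 1 lower) with edgeR, beside 15.9% of the 28848 genes tested there. With transcript length offsets it was 7 (6 higher, 1 lower), beside 23.7% of all genes tested. With 1 library left out it was 7 to 16, beside 25.7% to 31.6% of all genes tested. The cause of these differences was not tested. Changed transcripts numbered 11 (6 higher, 5 lower) at a mean of at least 5 TPM and 1 to 3 with 1 library left out. Changed shares numbered 4 (2 higher, 2 lower) with a pseudocount of 1 TPM, 4 (3 higher, 1 lower) at 5 TPM and 0 to 1 with 1 library left out, and changed non-coding ratios 2 (2 higher) at 5 TPM; fewer transcripts are tested at 5 TPM. Fitting the replicate numbers as a replicate block left 0 changed transcripts by limma (34 at an unadjusted p below 0.05) and 12 changed genes by DESeq2, with CARS1 added, and turned ASNS to 0.00088 on the log2 scale.

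Values that reversed were those of genes that did not pass in the main DESeq2 fit with all libraries. ATF4 did pass at its reversed sign without shCtrl replicate 2 (0.12, adjusted p = 0.0401 by DESeq2). With transcript length offsets the log2 fold changes were -0.04 for CEBPB, 0.0058 for CEBPG, 0.34 for NUPR1, 0.00061 for IARS1 and 0.089 for LARS1. GARS1 was at -0.00498 in edgeR, -0.00502 with TMM factors, -0.0013 above a mean count of 50 and -0.013 over protein-coding genes, where WARS1 was at -0.0027. With 1 library left out, log2 fold changes ran from -0.11 to 0.12 for ATF4, -0.31 to 0.11 for ATF3, -0.024 to 0.18 for CEBPB, -0.12 to 0.091 for CEBPG, -1.45 to 0.064 for DDIT4, -0.038 to 0.29 for SESN2, -1.28 to 0.72 for CHAC1, -0.13 to 0.14 for ASNS, -0.067 to 0.061 for AARS1, -0.046 to 0.074 for GARS1, -0.024 to 0.033 for IARS1 and -0.031 to 0.059 for WARS1.

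Depth limits NUPR1 and VLDLR, whose counts were too low to compare. TPM carry no depth, so no counting interval is given for transcripts.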
